A study of Mus musculus with 11 samples.

Results

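The genes described here are the mouse proteasome genes, chosen by symbol: protein-coding genes named Psma to Psmg with a number, leaving out genes for interacting proteins such as Psmc3ip, and with Pomp and Adrm1 added. The rule gave 51 of the 52550 genes in the table and used no measured value. RNA-seq was performed on keratinocytes (KCs) and dendritic epidermal T cells (DETCs), the resident γδ T cells of mouse skin, from huLangerin-DTA mice (LC-/-) and wild type (WT) littermates, female and 8 weeks old. LC-/- mice express diphtheria toxin subunit A all the time from a human langerin promoter, so they lack Langerhans cells (LCs) from birth, and no group lost LCs only as an adult. Both populations were sorted from flank-skin epidermis as live cells without MHC-II, langerin or c-kit, KCs without CD45 and DETCs with it. There were 3 WT and 3 LC-/- KC libraries and 3 WT and 2 LC-/- DETC libraries. WT libraries are named W1 to W3 and LC-/- libraries L1 to L3 in the order of the numbers in their labels, and L1 has only a KC library here. Within a population the libraries are separate animals, according to the study. Libraries of both populations that bear one name share a label number, which the labels do not state to be a mouse.

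The proteasome degrades proteins that carry ubiquitin chains. Its 20S core is a barrel of alpha and beta rings in which the beta1, beta2 and beta5 subunits cut peptide bonds, and its 19S regulator, a base of ATPases with a lid, binds ubiquitin chains, unfolds the substrate and feeds it into the core. Interferon and lymphoid cells replace the constitutive catalytic subunits Psmb6 (beta1), Psmb7 (beta2) and Psmb5 (beta5) with Psmb9, Psmb10 and Psmb8, which gives the immunoproteasome and changes the peptides offered on MHC class I. PA28 and PA200 are other caps of the core, and dedicated chaperones assemble core and base.

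Values are normalized counts, read counts divided by a size factor for each library, so that 1 normalized count was worth 0.9044 to 1.2118 reads. Total reads on genes ran from 13491075 to 19750440. A gene was tested if it had a CPM (its count scaled to a fixed library total) above 1 in at least 2 libraries, and 14419 genes passed. Of the 51 proteasome genes 49 passed. Psmb11, the thymic catalytic subunit, had 0 reads in each of the 11 libraries, a count that allows a share of up to 2.22e-05% of reads in the shallowest. Psma8, the germ cell alpha subunit, had 3, 1 and 2 reads in the WT DETC libraries and 0 elsewhere. Psmb8 and Psmb9, the markers of the immunoproteasome, were detected in every library. A change is the limma log2 fold change on log2(normalized count + 1) with its standard error (SE), and a gene is called at an adjusted p under 0.05 over all 14419 genes. Krt14, a basal keratin, had 69101 to 75855 normalized counts in KCs and Cd3e, a T cell receptor component, 24602 to 27726 in DETCs. Both populations thus held their defining markers. Cd207, the gene for langerin, had 6.15 to 26.9 in WT KCs and 0 in the LC-/- KC libraries, and 16.5 to 46.7 in WT DETCs against 0 and 4.42 in LC-/- DETCs. The median keratinocyte marker stood at 15.3% to 24.3% of its KC level in the DETC libraries, highest in L2, whereas the median DETC marker reached at most 0.0289% of its DETC level in KC libraries.

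In KCs, 3 of the 49 tested genes were upregulated in LC-/- mice and 0 were downregulated (limma), against 5.37% of all tested genes called higher and 1.85% called lower. The 3 genes belong to different parts of the proteasome: Psmd4, a ubiquitin receptor of the 19S base, Psmd11, a lid subunit that helps join base and core, and Psme3, the nuclear form of PA28. All changes were small, with every tested proteasome gene within 0.5 on the log2 scale, as were 87.3% of all genes. Their median absolute change was 0.13 against 0.20 over all genes, and their median SE 0.07 against 0.13. In bulk RNA, fewer cells of a type and less RNA per cell cannot be told apart.

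Psmd4 had 1016, 1043 and 1078 normalized counts in WT KCs W1, W2 and W3, and 1279, 1273 and 1246 in LC-/- KCs L1, L2 and L3. The groups did not overlap, and the change was 0.28 (SE 0.03, 1.21-fold, limma adjusted p = 0.0228). Psmd11 had 1577, 1516 and 1719 in WT and 2073, 2165 and 2062 in LC-/- KCs, again without overlap. Its change, 0.39 (SE 0.06, 1.31-fold, limma adjusted p = 0.0268), was the largest rise of any proteasome gene in KCs. Psme3 had 1790, 1696 and 1864 in WT and 2234, 2219 and 2309 in LC-/- KCs, a change of 0.34 (SE 0.04, 1.26-fold, limma adjusted p = 0.0248). In DETCs the genotypes overlapped for each of these genes, with changes of 0.01 (SE 0.08) for Psmd4, 0.12 (SE 0.13) for Psmd11 and 0.14 (SE 0.11) for Psme3. The KC calls rest on few libraries, although the sizes moved little. Leaving out W1, L1, W2 or L3 left 0 of them (limma adjusted p = 0.0699 to 0.102) and 5 to 10 of all 14419 genes called higher, leaving out W3 kept all 3, and leaving out L2 kept Psmd4 and Psme3, lost Psmd11 (limma adjusted p = 0.0523) and added Psmd1. The changes then ran from 0.26 to 0.30 for Psmd4, 0.35 to 0.44 for Psmd11 and 0.30 to 0.37 for Psme3. Quantile normalization kept the call of Psme3 alone (0.23), with Psmd4 at 0.20 (limma adjusted p = 0.0646) and Psmd11 at 0.28 (limma adjusted p = 0.0691), while DESeq2 and edgeR called all 3, beside 11.5% and 8.27% of all genes called higher.

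**Figure D1:**
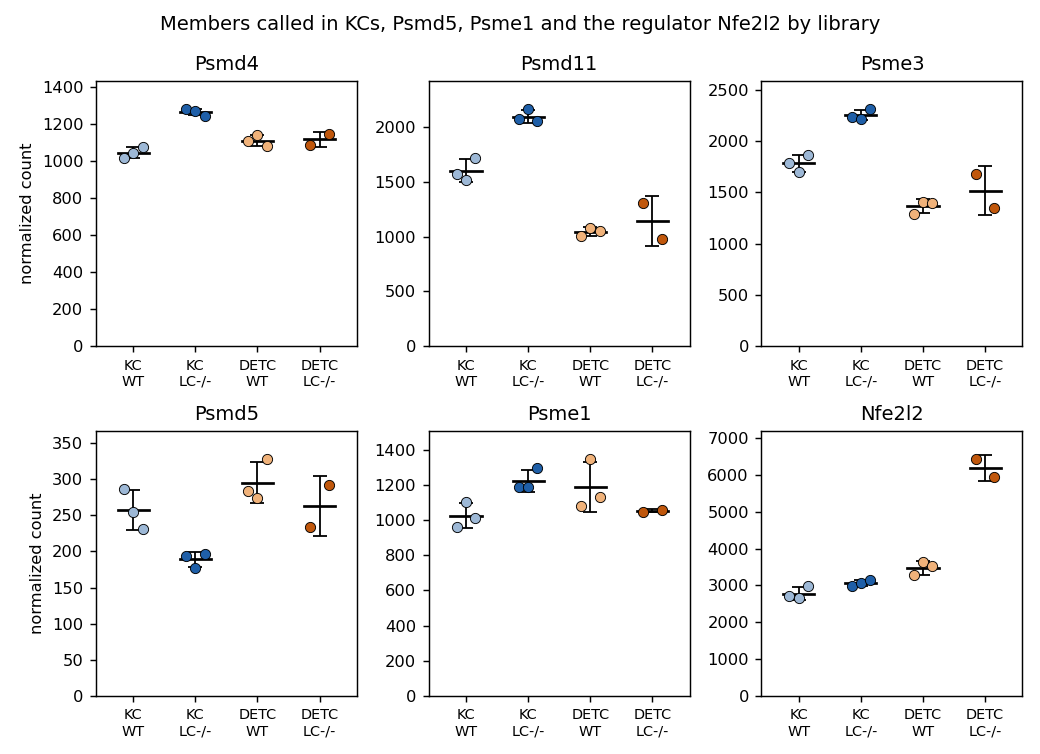
Normalized count (vertical axis, from 0) in every library for the 3 proteasome genes called in KCs, for Psmd5 and Psme1, and for the regulator Nfe2l2, by population and genotype. Points are libraries, the thick line is the mean and the error bar the SD. Psmd4, Psmd11 and Psme3 separate the genotypes in KCs and overlap in DETCs, and Nfe2l2 separates them most in DETCs, at 3276 to 3648 against 5954 and 6437.

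The promoters of Psmd4, Psmd11 and Psme3 are shown because these genes were called in KCs, that of Psmb5 because it holds a match to the antioxidant response element core, and that of Psmb10 because it was called higher in DETCs than in KCs. Each is 300 bases of RefSeq sequence on GRCm38.p6, from 250 bases before to 50 after an annotated start, 5′ to 3′ on the strand of the gene, with a match to TGACNNNGC or CCAAT on either strand in capitals. The windows are chr3:95042565-95042864 (minus strand), chr11:80428365-80428664 (plus), chr11:101315963-101316262 (plus), chr14:54617946-54618245 (minus) and chr8:105938343-105938642 (minus).
Psmd4: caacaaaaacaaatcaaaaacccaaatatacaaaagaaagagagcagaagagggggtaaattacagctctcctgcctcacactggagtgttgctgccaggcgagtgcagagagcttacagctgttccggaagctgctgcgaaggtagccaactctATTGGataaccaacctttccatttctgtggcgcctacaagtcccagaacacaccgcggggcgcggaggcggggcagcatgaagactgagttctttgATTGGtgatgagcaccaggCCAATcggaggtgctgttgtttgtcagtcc
Psmd11: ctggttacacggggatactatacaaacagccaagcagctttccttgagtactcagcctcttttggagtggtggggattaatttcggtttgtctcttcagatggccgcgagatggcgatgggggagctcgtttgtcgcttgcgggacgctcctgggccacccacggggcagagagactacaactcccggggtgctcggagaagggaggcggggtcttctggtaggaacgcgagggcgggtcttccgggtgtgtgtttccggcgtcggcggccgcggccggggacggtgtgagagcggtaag
Psme3: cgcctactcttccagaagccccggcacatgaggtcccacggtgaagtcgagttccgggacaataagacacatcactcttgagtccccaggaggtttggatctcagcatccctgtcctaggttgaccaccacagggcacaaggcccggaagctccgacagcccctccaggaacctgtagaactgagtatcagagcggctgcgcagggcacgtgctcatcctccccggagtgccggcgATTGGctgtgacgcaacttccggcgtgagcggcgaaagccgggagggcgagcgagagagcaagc
Psmb5: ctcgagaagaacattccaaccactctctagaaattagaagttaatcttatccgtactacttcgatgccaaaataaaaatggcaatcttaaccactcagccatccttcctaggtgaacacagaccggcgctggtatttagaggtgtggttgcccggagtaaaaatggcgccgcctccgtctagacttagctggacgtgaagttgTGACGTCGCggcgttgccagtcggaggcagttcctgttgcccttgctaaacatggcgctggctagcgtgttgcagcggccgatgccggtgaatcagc
Psmb10: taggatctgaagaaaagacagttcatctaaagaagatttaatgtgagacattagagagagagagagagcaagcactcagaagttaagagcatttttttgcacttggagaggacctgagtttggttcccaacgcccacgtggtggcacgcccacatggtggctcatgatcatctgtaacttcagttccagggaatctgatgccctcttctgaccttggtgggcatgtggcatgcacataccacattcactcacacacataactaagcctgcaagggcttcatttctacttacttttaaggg

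The window of Psmd4 holds 3 CCAAT matches, that of Psme3 holds 1 and that of Psmd11 holds neither motif. A window was found for 43 of the 51 genes. TGACNNNGC, the antioxidant response element core, was in 7 of them (Adrm1, Psmb5, Psmb6, Psmc6, Psmd12, Psmd9 and Psme4), or 16.3%, beside 14.8% of 17492 genes with a window. CCAAT was in 15, or 34.9%, beside 42.3% of all genes. None of the 7 genes with TGACNNNGC was called by genotype in either population (limma), and Psmd4, Psme3 and Psmd11 have no such match within these bases.

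By role, the KC differences above 0 lay mostly in the 19S regulator, PA28 and the core, which also hold most of the tested genes. LC-/- and WT KCs did not overlap, with LC-/- higher, for 15 of the 49 genes (16.6% of all genes): 7 of the 19S regulator, 2 of PA28 and 6 of the core. They did not overlap with LC-/- lower for 3, Psmd5, Psmb10 and Psme2b (14.9% of all genes). For the non-ATPase base subunits, which hold the scaffold and the ubiquitin receptors, WT KCs summed to 5347, 5298 and 5403 and LC-/- KCs to 6225, 6225 and 6208. All 4 genes of this group had positive changes, from 0.20 for the scaffold subunit Psmd2 (limma adjusted p = 0.0672) to 0.28 for Psmd4. The summed lid was 8011, 8119 and 8252 against 8938, 9174 and 9238, with 1 of 8 genes called. Psmd7, the partner of the lid deubiquitinase, had a change of 0.22 and Psmd8 one of 0.18, neither called. Psmd14, the lid deubiquitinase that removes ubiquitin before degradation, had a change of -0.06 (SE 0.09). The 6 base ATPases had changes of 0.02 to 0.19, with 0 called, and under quantile normalization those of Psmc1 (-0.02), Psmc3 (-0.03) and Psmc5 (-0.00) turned below 0.

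The KC sum over all 51 genes depended on the scaling. The normalized counts of WT KCs came to 38072, 38559 and 38156 and those of LC-/- KCs to 41417, 40743 and 42289, without overlap. As CPM the sums were 2733, 2899 and 2765 against 2787, 2772 and 2743, and the genotypes overlapped. The PA28 genes together (Psme1, Psme2 and Psme3) stayed apart on both scales, at 237, 255 and 250.1 against 268, 269 and 274 CPM. The non-ATPase base subunits also did, at 384, 398 and 392 against 419, 423 and 403, whereas the lid overlapped, at 575 to 610.4 against 599 to 624.

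For Psme1 and Psme2, the interferon-inducible subunits of the PA28 cap, the KC changes were not compared with each other by a test. Psme1 had 963, 1103 and 1012 in WT and 1191, 1190 and 1298 in LC-/- KCs, a change of 0.26 (SE 0.07, limma adjusted p = 0.0813) without overlap. Psme2 had 547, 589 and 575 against 563, 549 and 618, a change of 0.01 (SE 0.06). Neither was called.

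None of the chaperones was called by limma. Psmd5, Psmd9 and Psmd10, which assemble the base, had changes of -0.44, -0.07 (0.03 under quantile normalization) and -0.25. Psmd5 had 287, 255 and 231 in WT and 194, 177 and 196 in LC-/- KCs, without overlap, and was the largest fall in size (SE 0.10, 0.738-fold). It missed the threshold in limma (adjusted p = 0.0657) and passed it in DESeq2 (adjusted p = 0.0292, beside 5.08% of all genes called lower) and edgeR (adjusted p = 0.0299, beside 4.1%). Pomp, which matures the core, had 649.7, 612 and 590.4 against 562, 629 and 536, a change of -0.10 (SE 0.07) with overlap. Of the other 4 core chaperones, Psmg1, Psmg2 and Psmg4 had changes of -0.15 to -0.18 and Psmg3 0.08, none called.

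The catalytic subunits of KCs were not called. The constitutive subunits moved by -0.04 (Psmb5), 0.13 (Psmb6) and 0.11 (Psmb7), with SEs of 0.05, 0.05 and 0.04. Psmb5 had 358, 347 and 358 in WT and 328, 353 and 354 in LC-/- KCs. Psmb6 had 705, 780 and 724 against 795, 843 and 786, and Psmb7 had 998, 977 and 1028 against 1099, 1086 and 1044. LC-/- KCs lay above WT without overlap for the latter genes only. Psmb8 had 629, 841 and 628 in WT and 613, 605 and 902 in LC-/- KCs, a change of 0.00 (SE 0.21), with W2 and L3 above the others. Psmb9 had 221, 285 and 212 against 144, 189 and 232, a change of -0.36 (SE 0.21, limma adjusted p = 0.349) with overlap. Psmb10 had 108, 147 and 122 against 88.1, 89.6 and 104, a change of -0.41 (SE 0.15, 0.754-fold, limma adjusted p = 0.168) without overlap. Of 18 Langerhans cell markers 12 were tested in KCs, with 4 lower (Cd207, H2-Aa, Cd74 and Tyrobp) and 1 higher (Epcam, which KCs also express). Of all genes 1.85% were called lower and 5.37% higher (limma). The calls of H2-Aa and Cd74 ended whichever library was left out. That of Cd207 held only without W1, that of Tyrobp only without W3, and that of Epcam ended without W1, W2, L1 or L3. The summed level of all 18 was 6231 to 6838 in WT and 9636 to 10195 in LC-/- KCs, most of it Epcam at 5799 to 6564 and 9484 to 9970, and the other 17 summed to 274 to 432 in WT and to no more than 225 in any LC-/- KC library. Cd207 was at 0 in LC-/- KCs, and their part in the values of the inducible subunits was not tested.

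**Figure D2:**
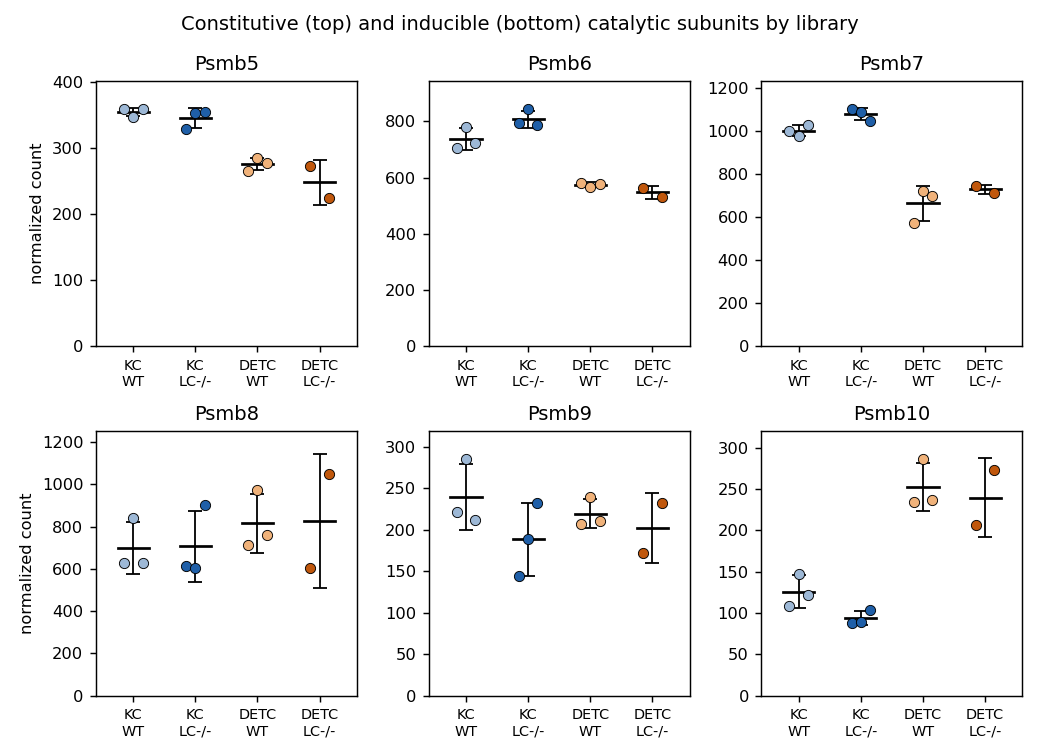
Normalized count (vertical axis, from 0) in every library for the constitutive catalytic subunits Psmb5, Psmb6 and Psmb7 (top) and for their inducible counterparts Psmb8, Psmb9 and Psmb10 (bottom), by population and genotype. Points are libraries, the thick line is the mean and the error bar the SD. Psmb10 lies at 88.1 to 147 in KCs and 206 to 286 in DETCs, while Psmb8 and Psmb9 overlap between all groups.

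In DETCs, 0 of the 49 proteasome genes were called in either direction by limma, DESeq2 or edgeR, against 3.13% of all tested genes called higher and 0.43% called lower by limma, 7.85% and 1.91% by DESeq2 and 2.84% and 0.506% by edgeR. At an unadjusted p under 0.05, limma gave 3 genes higher and 2 lower, beside 13.1% and 6.19% of all genes. Every gene again lay within 0.5 on the log2 scale, as did 85.1% of all genes, and the median SE was 0.11 against 0.16 over all genes. With 2 LC-/- libraries, differences of this size are less precise than in KCs. The gene nearest to the threshold was Psme4, the PA200 cap, with 1404, 1414 and 1445 in WT and 1676 and 1756 in LC-/- DETCs (0.27, SE 0.08, limma adjusted p = 0.115).

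The largest DETC differences in size were those of lowly expressed core chaperones. Psmg4 had 32.7, 31.4 and 41.8 in WT and 48.5 and 49.8 in LC-/- DETCs (0.48, SE 0.26). Psmg1 had 85.1, 60.2 and 69 against 54.4 and 52 (-0.41, SE 0.23). Psmg3 had 46.9, 19 and 33.1 against 21.4 and 26.5 (-0.36, SE 0.41), and its groups overlapped. Pomp had 501, 590 and 533 against 427 and 457, without overlap (-0.29, SE 0.11, limma adjusted p = 0.211). Genotypes did not overlap, with LC-/- lower, for 13 genes in all (16.5% of all genes), and with LC-/- higher for 6 (21.3% of all genes).

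The inducible catalytic subunits overlapped between genotypes in DETCs. Psmb8 had 714, 972 and 759 in WT and 603 and 1051 in LC-/- DETCs, so that the LC-/- libraries lay on both sides of all WT libraries (-0.02, SE 0.23). Psmb9 had 207, 239 and 211 against 172 and 232 (-0.13, SE 0.17), and Psmb10 had 234, 286 and 237 against 206 and 273 (-0.08, SE 0.17). For each of them L2 was the lowest DETC library. The constitutive subunits were Psmb5 at 265, 284 and 277 against 272 and 224, Psmb6 at 581, 565 and 577 against 564 and 531, and Psmb7 at 569.6, 719.6 and 697 against 743 and 712. Of these genes Psmb6 alone did not overlap, with a change of -0.07 (SE 0.09). Psme1 had 1080, 1349 and 1133 against 1050 and 1061 (-0.16, SE 0.11), and Psme2 had 576, 619.7 and 599 against 466 and 569 (-0.21, SE 0.12).

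Summed over all proteasome genes, WT DETCs had 31263, 33377 and 32793 and LC-/- DETCs 33237 and 32195, which overlap. As CPM it was 2063, 2048 and 1998 against 1823 and 1750, lower in LC-/- without overlap. Keratinocyte markers stood at 24.3% of their KC level in L2 and at 16.2% in L3, against 15.3%, 15.3% and 18.6% in WT DETCs. Of 24 such markers 0 were called by genotype in DETCs, their summed level was 133402 to 158958 in WT and 145004 to 221246 in LC-/- DETCs with none at 0, and their part in these values was not tested.

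**Figure D3:**
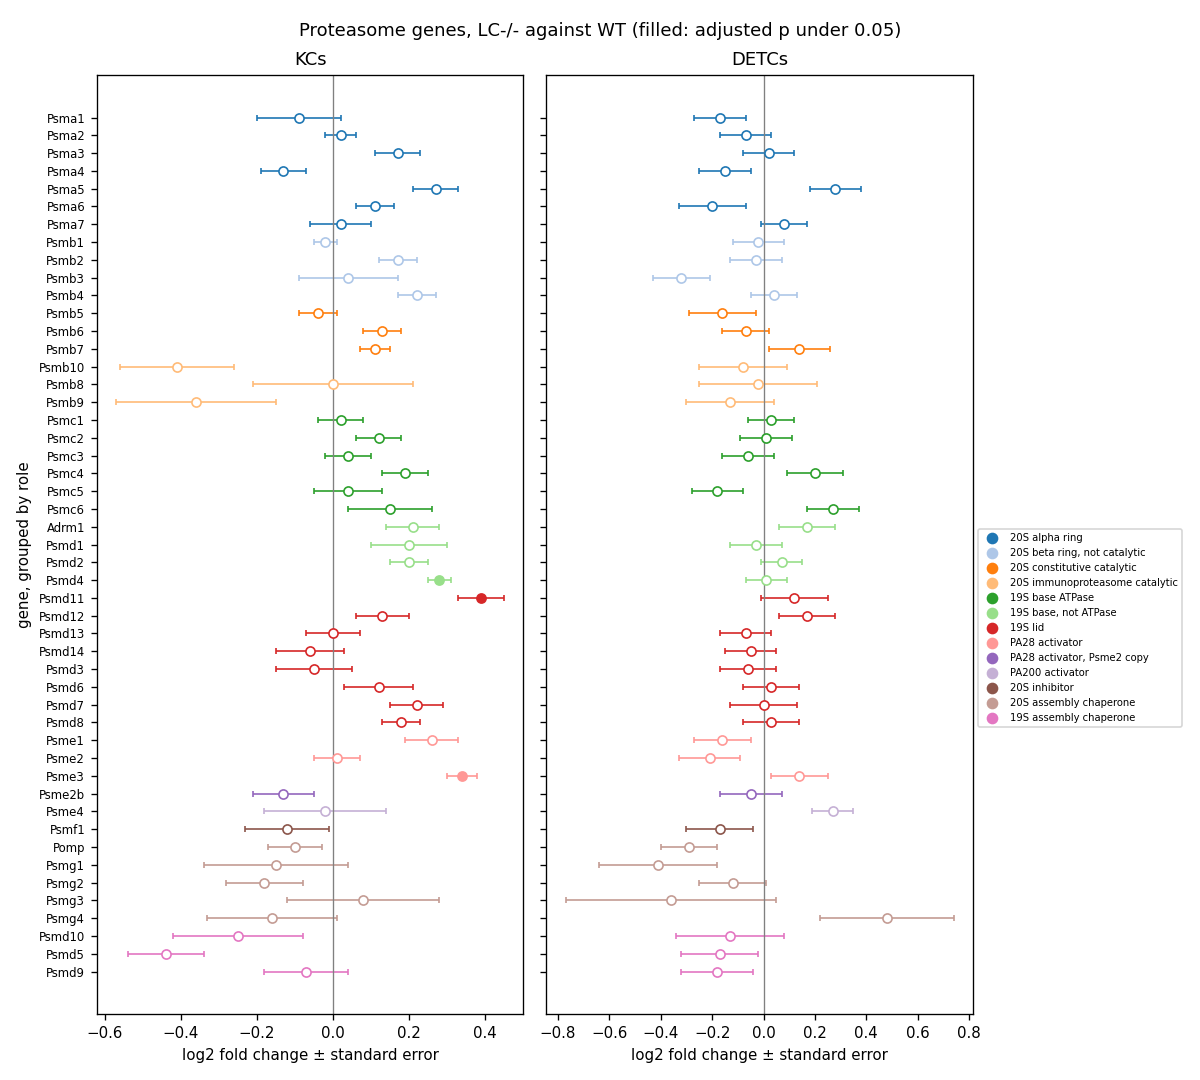
Log2 fold change of LC-/- against WT (horizontal axis, limma, with SE bars) for the 49 tested proteasome genes in KCs (left) and DETCs (right), grouped and coloured by role. Filled points passed an adjusted p under 0.05: Psmd4, Psmd11 and Psme3 in KCs and none in DETCs. All points lie within 0.5 of 0, and the horizontal scales of the panels differ.

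The genotype change itself was compared between DETCs and KCs with an interaction term over all 11 libraries. Of the 49 genes 0 were called by limma, DESeq2 or edgeR, against 0.617% of all genes called higher and 0.18% called lower by limma, 2.59% and 0.835% by DESeq2 and 0.576% and 0.215% by edgeR. At an unadjusted p under 0.05 limma gave 0 higher and 3 lower, beside 7.3% and 4.04% of all genes. The nearest were Psme1 (-0.42, SE 0.14, limma adjusted p = 0.237) and Psmd4 (-0.27, SE 0.09, limma adjusted p = 0.287), whose changes were larger in KCs. For Psmd11 the difference was -0.27 (SE 0.15, limma adjusted p = 0.534) and for Psme3 -0.19 (SE 0.13, limma adjusted p = 0.643). So the genes called in KCs were not shown to respond differently in DETCs.

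Between the populations the same genes differed far more. In WT mice 7 of the 49 genes were higher in DETCs than in KCs and 24 were lower (limma), beside 41% of all genes called higher and 35.1% called lower. Their median change was -0.31, beside 0.07 over all genes. Quantile normalization gave 4 higher (Psma7, Psmb10, Psme2b and Psmg2) and 36 lower, and moved the median of all genes from 0.07 to -0.24. The median absolute change of the proteasome genes was 0.37 against 0.85 over all genes. The keratinocyte marker levels given above for WT DETC libraries stand beside every value of this comparison, and their part was not tested.

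Psmb10 was the proteasome gene with the largest difference in size on this scale, whereas under quantile normalization (0.74) it was passed by several falls, the largest that of Psmd7 (-0.98). It had 108 to 147 normalized counts in WT KCs and 234 to 286 in WT DETCs, 2.01-fold higher (1.01, SE 0.15, limma adjusted p = 0.000181). Its constitutive counterpart Psmb7 went the other way, from 977 to 1028 in KCs to 569.6 to 719.6 in DETCs (-0.60, SE 0.10, limma adjusted p = 0.000275). Psmb5 and Psmb6 were also lower in DETCs, both by -0.36. Psmb8 and Psmb9 were not called: Psmb8 differed by 0.22 (SE 0.14, limma adjusted p = 0.191) and Psmb9 by -0.12 (SE 0.14, limma adjusted p = 0.452). Quantile normalization called Psmb9 lower (-0.35, limma adjusted p = 0.0409) and left Psmb8 at 0.03, and leaving out W2 of the KCs called Psmb8 higher (0.36, limma adjusted p = 0.0382).

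Of the 7 widely expressed alpha subunits, which gate the entry to the core, 6 were lower in DETCs, by -0.36 (Psma5) to -0.61 (Psma6). The exception was Psma7, with 751, 802 and 684 in WT KCs and 1448, 1295 and 1354 in WT DETCs, 1.83-fold higher (0.87, SE 0.08, limma adjusted p = 7e-06). Among the noncatalytic beta subunits Psmb1, Psmb2 and Psmb4 were lower and Psmb3 was higher (0.41, SE 0.11). The call of Psmb1 (-0.19, limma adjusted p = 0.0323) was lost in DESeq2 (adjusted p = 0.0534), without the variance trend (limma adjusted p = 0.0784) and in 5 of the 6 fits that left out a library. Of the base ATPases 4 of 6 were lower, led by Psmc6 (-0.61, SE 0.07), and Psmc3 and Psmc4 were not called. Of the lid subunits 5 of 8 were lower, with Psmd7 (-0.77, SE 0.10, 0.586-fold) the largest fall of all members. Psmd13, a lid subunit, was higher by 0.28 (SE 0.08).

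Outside core and 19S, Psme4 was lower in DETCs by -0.63 (SE 0.08) and Psme3 by -0.39 (SE 0.07), while Psme1 and Psme2 were not called. Psmf1, which binds the core and inhibits it in vitro, was higher by 0.27 (SE 0.10, limma adjusted p = 0.0379), a call that DESeq2 and edgeR did not make. Psmg2, which with Psmg1 starts the assembly of the alpha ring, was higher by 0.71 (SE 0.11, 1.64-fold), at 153 to 177 in WT KCs and 265 to 266 in WT DETCs. Psmg1 itself had 71.7 to 104 against 60.2 to 85.1 and was not called (-0.37, SE 0.21). The base chaperones Psmd5, Psmd9 and Psmd10 were not called. Psme2b, a near copy of Psme2, was higher by 0.74 (SE 0.10), and 60.2% of its 75-base words also occur in Psme2, so its counts are uncertain. Of the words of Psme2, 46.9% occur in Psme2b, so the counts of Psme2 are uncertain too.

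**Figure D4:**
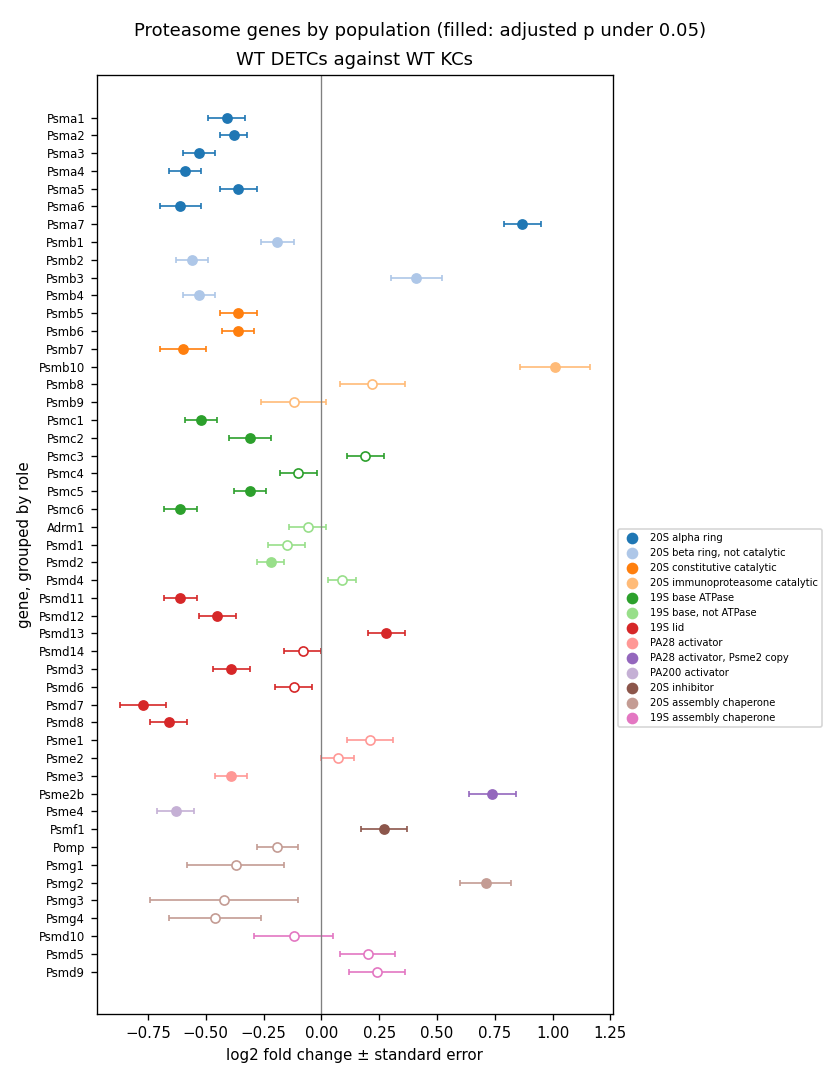
Log2 fold change of WT DETCs against WT KCs (horizontal axis, limma, with SE bars) for the 49 tested proteasome genes, grouped and coloured by role. Filled points passed an adjusted p under 0.05. Most genes lie left of 0, with Psma7 at 0.87 and Psmb10 at 1.01 farthest to the right and Psmd7 at -0.77 farthest to the left.

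Levels of an inducible subunit and its constitutive counterpart were set side by side as a share of their sum, after division by the annotated exon length of each gene. Psmb10 made up 17.8%, 23.3% and 19.2% of the Psmb10 and Psmb7 signal per kilobase in WT KCs and 13.9%, 14.2% and 16.7% in LC-/- KCs, without overlap. In DETCs it made up 45.1%, 44.4% and 40.6% in WT and 35.7% and 43.5% in LC-/- libraries. Each DETC library lay above each KC library. The share of Psmb8 beside Psmb5 was 34.3% ± 4.25 (SD, n = 3) in WT KCs, 34.9% ± 4.80 (n = 3) in LC-/- KCs, 43.8% ± 3.32 (n = 3) in WT DETCs and 46.3% ± 13.0 (n = 2) in LC-/- DETCs. The share of Psmb9 beside Psmb6 was 14.2% ± 1.39, 10.6% ± 2.34, 16.3% ± 1.28 and 15.9% ± 3.40 in the same groups. Such shares compare levels of different genes and depend on the length used: with the mean protein-coding transcript length Psmb8 came to 47.7% and Psmb10 to 10% in WT KCs. For Psmb9 the libraries of the populations overlapped in WT mice, at 13% to 15.7% in KCs and 15.4% to 17.8% in DETCs, and its own signal per kilobase was 65.4 ± 10.8 in KCs and 59.9 ± 4.78 in DETCs (SD, n = 3).

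Regulators of proteasome genes, a list of 18, had 4 genes called higher in KCs (5.37% of all genes) and 2 in DETCs (3.13% of all genes), and 0 lower in either (limma). In KCs these were Mafg and Maff, small Maf partners of Nfe2l1 and Nfe2l2, Nploc4, a cofactor of the segregase p97, and Stat3, with changes of 0.40, 0.34, 0.34 and 0.39. Leaving out any library other than L2 ended each of these KC calls, as did quantile normalization (limma adjusted p = 0.08 to 0.148), and leaving out L2 also ended those of Maff (limma adjusted p = 0.0621) and Nploc4 (limma adjusted p = 0.0717). In DETCs they were Stat3 (0.75, SE 0.10, limma adjusted p = 0.0168) and Nfe2l2. Nfe2l2, the antioxidant response factor NRF2, had 3276, 3648 and 3517 in WT and 6437 and 5954 in LC-/- DETCs, 1.78-fold higher (0.83, SE 0.09, limma adjusted p = 0.00991). In KCs it had 2702, 2647 and 2979 against 2982, 3074 and 3144 and was not called (0.15, SE 0.05), and the interaction was called (0.69, SE 0.11, limma adjusted p = 0.0146). Its DETC call was lost without L2 (0.78, limma adjusted p = 0.0635), without W3 (0.84, limma adjusted p = 0.0534) and without the variance trend (limma adjusted p = 0.179), and the interaction call without the DETC library L2 (0.63) or the KC library L1 (0.67), without the variance trend (limma adjusted p = 0.0773) and with the label number as a block (limma adjusted p = 0.106). Nfe2l1, the factor that restores proteasome gene transcription when the proteasome is blocked, was not called by genotype in KCs (0.15, SE 0.06) or DETCs (0.15, SE 0.13), and both values fell below 0 under quantile normalization (-0.06 and -0.01). In WT mice it was lower in DETCs than in KCs (-1.30, SE 0.08, limma adjusted p = 5e-07).

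Of 18 genes of interferon signalling and class I presentation, 1 was called higher in each population, the kinase Jak2 in KCs (0.78, SE 0.14) and the receptor chain Ifnar1 in DETCs (0.41, SE 0.08), and 0 lower, beside 5.37% of all genes called higher in KCs and 3.13% in DETCs. Irf1, which drives the inducible subunits, was not called by genotype, and in WT mice it was lower in DETCs than in KCs (-1.25, SE 0.10). Among the tested genes for ubiquitin supply and proteasome partners, Zfand2a, a stress-induced proteasome adaptor, was higher in KCs by 0.77. The ubiquitin-activating enzyme Uba6 and the proteasome-bound thioredoxin Txnl1 were higher in DETCs by 0.80 and 0.50. The small lid subunit Sem1, which the symbol rule does not take, was not called by genotype (0.07 in KCs and -0.06 in DETCs) and was lower in WT DETCs than KCs (-0.28, SE 0.07). Of 12 immediate early and heat shock genes, 0 were called in KCs and 2 were higher in DETCs (3.13% of all genes), Hsp90aa1 (0.62, SE 0.12) and Dnajb1 (0.51, SE 0.11), and their part in the DETC values was not tested. In KCs Zfand2a lost its call without L1 or without L3, and Jak2 without any library other than L2. In DETCs Stat3, Ifnar1, Uba6, Txnl1, Hsp90aa1 and Dnajb1 lost theirs without L2 or without W3. Of these, Stat3 also lost its call without W2, Ifnar1, Txnl1 and Hsp90aa1 without W2 or without L3, and Dnajb1 without any 1 of the 5 libraries. Without the variance trend 0 of the 14419 genes were called in DETCs (limma, against 1554 rises and 853 falls with unadjusted p under 0.05), so these calls ended there too.

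Some counts may hold reads of other genes. Psmb9 shares 212 exon bases with Tap1 on the opposite strand and Psmb7 shares 405 with Nek6, and whether counting used the strand is not given in the sources used here. Psmb9 lies at chr17:34181987-34187764 and Psmb8 at chr17:34197721-34201454 (GRCm38, GENCODE), in the MHC region beside Tap1. Of the 75-base words of Adrm1, 72.5% also occur in Gm9774, and for Psma5 39.8% and for Psmb5 36.8% occur in other genes. None of the words of Psmd4, Psme3, Psma7 or Psmb10 do, and 7.89% of those of Psmd11.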

How the data were processed

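Epidermal KCs and DETCs were profiled by poly-A RNA-seq in 11 libraries of 13491075 to 19750440 reads on genes. Per the study's methods, the authors used cutadapt for trimming, hisat2 for alignment to GRCm38 and featureCounts for gene counts, which were then divided by a median-of-ratios size factor. Tool versions and strand settings are not given in the sources used here. The deposited signal is therefore a normalized count per gene, and whole reads were recovered for 100% of values (tolerance 0.01). The 52550 genes were matched to GENCODE M21 for 52403.

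Values were analysed as log2(normalized count + 1) with limma 3.58.1 in R 4.3.3 (eBayes with trend, Benjamini-Hochberg) over 14419 genes with CPM above 1 in at least 2 libraries, within KCs, within DETCs, across WT libraries, and with an interaction over all libraries. DESeq2 1.42.0 and edgeR 4.0.16 on recovered reads, other pseudocounts, filters and scaling, and each library left out were alternatives. Scripts were tested on simulated data. The share of an inducible subunit is its signal per kilobase over that of the pair, and transcript length was added after seeing the data. The genes and lists were chosen with earlier results of these data known. Values by library are given for catalytic subunits, Psme1, Psme2, Pomp, called genes and the 3 largest changes per population. Listed genes are named when called by genotype or as regulators fixed by name. Some genes that this rule selects are left unreported. The floor given for Psmb11 covers counting error only, whereas SEs and SDs come from the spread between libraries.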

Additional observations from a re-analysis of the deposited data

Results flagged for a closer look

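For 2 proteasome genes the genotypes parted without overlap in opposite directions in the populations, higher in LC-/- KCs and lower in LC-/- DETCs. The interaction term, which tests this difference, did not pass for either. For Psme1, a PA28 subunit, it was -0.42 (SE 0.14, limma adjusted p = 0.237), with changes of 0.26 in KCs and -0.16 in DETCs. For Psmb6, the constitutive beta1 subunit, it was -0.20 (SE 0.11, limma adjusted p = 0.534), with changes of 0.13 in KCs and -0.07 in DETCs. The DETC groups of Psmb6 nearly touched, at 565 in the WT library W2 and 564 in the LC-/- library L2. No group held enough libraries for a test of single outlying samples.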

How the results depend on the processing

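In KCs the 3 genes called higher became 1 with quantile normalization and 0 to 3 with each replicate left out. With 0 called lower, Psmd5 was the 1 gene called lower without a filter, by DESeq2, by edgeR and in a fit over all 11 libraries. DETC and interaction counts were 0 under every alternative run, but fits such as those without the DETC library W3 (42 of all 14419 genes higher and 0 lower) or L2 (29 and 6) called few genes at all, and that without the variance trend none in DETCs, so these counts say little about stability. Between WT populations quantile normalization gave 4 higher. By reads alone the share of Psmb8 was 66.1%, 66.7%, 74.5% and 75.7%, of Psmb9 24.4%, 18.8%, 27.6% and 26.9%, and of Psmb10 11.2%, 8.03%, 27.6% and 24.7% in WT KCs, LC-/- KCs, WT DETCs and LC-/- DETCs. With transcript length Psmb8 had 47.7%, 48.4%, 57.8% and 59.7%, Psmb10 10%, 7.17%, 25.3% and 22.5%, and Psmb9 16.0% in WT KCs and 18.4% in WT DETCs, since these settings divide by other lengths. Under quantile normalization the sign turned for 8 of 46 uncalled genes in KCs and 8 of 49 in DETCs, among them Psmb8 (-0.03) and Psme2 (-0.00) in KCs and Psmd4 in DETCs (-0.09; DESeq2 -0.02, edgeR -0.04). With each replicate left out it turned for 14 in KCs and 17 in DETCs. Those described by library ranged in KCs from -0.19 to 0.14 (Psmb8), -0.04 to 0.05 (Psme2) and -0.11 to 0.19 (Psmg3), in DETCs from -0.42 to 0.38 (Psmb8), -0.35 to 0.09 (Psmb9), -0.29 to 0.12 (Psmb10), -0.03 to 0.04 (Psmd4), -0.09 to 0.32 (Psmd11) and -0.02 to 0.30 (Psme3), and between WT populations from -0.20 to 0.01 (Psmb9). The cause was not tested. With the label number as a replicate block the interaction called 0 higher and 0 lower, and the WT comparison called 8 higher and 24 lower, adding Psmb8 (limma adjusted p = 0.0265) and Psme1 (limma adjusted p = 0.0309) and dropping Psmf1. Deviations of same-numbered libraries correlated at -0.0534 (W1), 0.0667 (W2), 0.117 (W3), 0.143 (L2) and 0.117 (L3). Of 5 KC libraries, 3 correlated best with their own number, which does not settle whether same-numbered libraries are pairs. The main fits did not take them as pairs, because the labels do not state that a number is a mouse. WT and LC-/- share no number. A promoter window of greater length was not run, since no genome was used here.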

Other observations

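The interferon-inducible proteasome genes shared part of their library order in both populations, a pattern noticed after their values were seen. L1 was left out of it, and so was the order of W1 and W3. That order turned between the populations for Psmb8 and Psmb9, but not for Psmb10, Psme1 and Psme2. Psmb8, Psmb9, Psmb10, Psme1 and Psme2, and also Psmg2, had W2 highest of the WT libraries and L3 above L2 in KCs and in DETCs. These 6 of 49 genes (12.2%) compare with 283 of 14419 (1.96%) over all tested genes. Among the genes of interferon signalling and class I presentation B2m, Irf9, Nlrc5, Tap1 and Tapbp showed it. For Tap1, a subunit of the class I peptide transporter, the KC values were 1812, 1864 and 1652 in W1, W2 and W3 and 1641 and 2048 in L2 and L3, and the DETC values 1123, 1502 and 1300 and 1119 and 1841. So did 2 of 20 DETC markers (10%), Cd3e and Lat, whose order in KCs rests on very few reads. In KC libraries W1, W2 and W3, Cd3e had 1, 4 and 4 reads and Lat 0, 1 and 0. None of the tested genes in the lists of regulators of proteasome genes, ubiquitin supply, keratinocyte markers, Langerhans cell markers and heat shock genes did. The labels do not say whether libraries with the same number came from the same mouse, and no test was made.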
